A study of Mus musculus with 12 samples.

Results

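Citrate-coated silver nanoparticles were compared with water in the livers of mice, on 8 of the 12 arrays of the study. The arrays were chosen by the treatment in their titles, 4 from mice given the particles and 4 from controls, and of 30062 genes with a probe set of their own, 19987 were tested. The strain of all mice was C57BL/6J -Oca2p-un/J, so the controls carry the unstable pink-eyed allele of Oca2 as well, and all were 3 months old. Exposed mice received particles of 20 nm by gavage at 4 mg/kg on 7 days, controls received water, and livers were taken 24 h after the last dose. Each group held 2 females and 2 males. Citrate replicates 1 and 2 and control replicates 2 and 4 were female. The remaining 4 arrays came from mice given particles of the same size and dose coated with polyvinylpyrrolidone (PVP); they entered the fit to estimate the spread. No group given citrate without silver was among the samples used here, so the coating and the metal cannot be told apart. Values are log2 signals of whole liver, in which fewer cells of a type and less RNA per cell cannot be told apart.

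The liver receives what the gut absorbs first, and it stores, detoxifies and excretes metals. Silver ions released from particles bind thiol groups, and metallothioneins, small proteins rich in cysteine, bind such soft metals and are induced with them through the metal-responsive transcription factor MTF1. Metallothionein genes also respond to glucocorticoids, fasting and inflammatory cytokines. Oxidised or alkylated thiols act on KEAP1, the partner that holds back the transcription factor NRF2, and damaged proteins activate the heat shock response. Cells of the liver sinusoids, Kupffer cells above all, take up particles from the blood.

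Array medians lay between 4.13 and 4.40, and the medians of the tested genes between 5.76 and 5.84. The area under the curve that separates exon from intron control probe sets, a measure of array quality, was 0.804 to 0.842 on the control arrays and 0.814 to 0.827 on the citrate arrays, against 0.778 to 0.821 with PVP. Most hepatocyte markers stood at the ceiling of the table, 19.93; of 12 measured, 2 had a difference above 0 and 0 had one below. The Y-linked gene Eif2s3y and Xist matched the labelled sexes on all 12 arrays. The median SD of a gene over the 4 mice of a group was 0.17 in controls and 0.14 with citrate.

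Differences are citrate minus control from limma, a linear model with moderated variance, with a term for sex, and are given with their standard error (SE). A gene passed at a Benjamini-Hochberg adjusted p under 0.05 over all genes tested. By that rule 1 of 19987 genes passed, which is 0.005%, with 0 higher and 1 lower. An unadjusted p under 0.05 was found for 1313 genes (6.57%), of which 549 were higher (2.75%) and 764 lower (3.82%). In 860 genes (4.3%) the 4 citrate mice did not overlap the 4 controls; they lay above them in 386 genes (1.93%) and below in 474 (2.37%). A share of 50.1% of genes had a difference above 0. A log2 difference of at least 1 in size was fitted for 93 genes (0.465%), 62 higher and 31 lower.

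**Figure D1:**
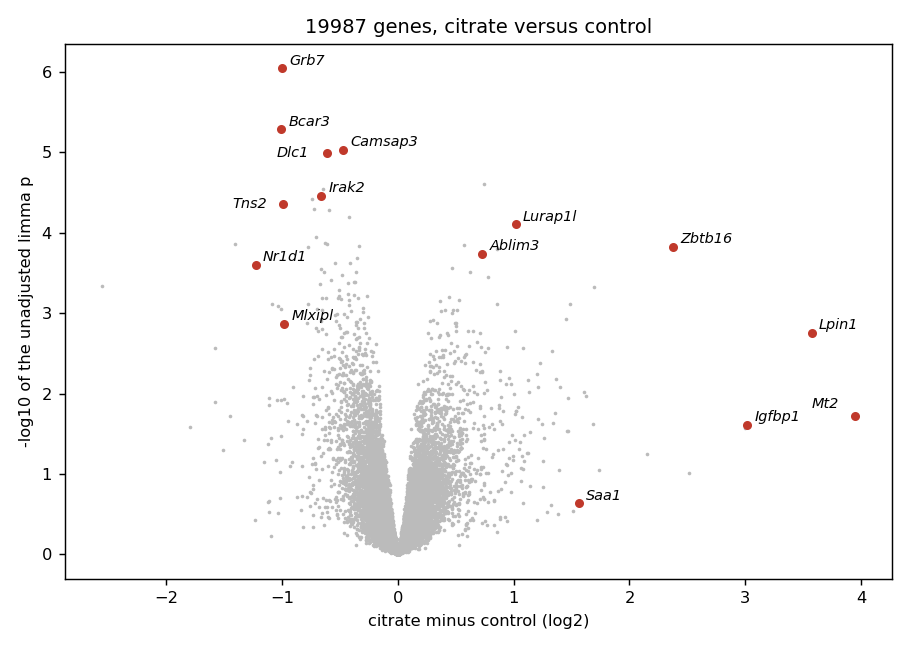
Each point is 1 of 19987 genes, with the difference citrate minus control (log2) across and -log10 of the unadjusted limma p upward. Named genes are in red. Grb7 is highest, and the genes of largest difference to the right, Mt2 at 3.95 and Lpin1 at 3.57, lie lower, with larger SEs.

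The gene that fell was Grb7, on chromosome 11, which encodes an adaptor that binds phosphotyrosines of receptor tyrosine kinases such as ErbB2 and the insulin receptor. Its log2 signal was 9.75, 9.50, 9.86 and 9.36 in control replicates 1 to 4 and 8.42, 8.51, 8.77 and 8.74 in citrate replicates 1 to 4. Every citrate mouse lay below every control mouse, and the gap between the groups was wider than either group. The difference was -1.002 (SE 0.10, limma adjusted p = 0.0182), which is 2.00-fold lower on the linear scale. It was -0.96 in females and -1.05 in males. Leaving out any 1 of 8 arrays raised the adjusted p to between 0.0697 and 0.179, namely 1 of the 4 citrate arrays, 1 of control replicates 1 to 3, or PVP replicate 4. The fitted difference stayed between -1.05 and -0.96 in each setting tried.

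Of the 30 genes of smallest p, 23 were lower and 7 higher with citrate, and 4 of them are predicted genes. The 4 citrate mice lay below all controls in 22 of these and above them in 6. This ranking uses the same contrast, so the counts describe the selection. Several encode adaptors, cytoskeletal proteins or junction proteins. Bcar3, an adaptor that links receptors to small GTPases and Src-family signalling, had 8.39, 8.58, 8.30 and 8.67 in the controls and 7.44, 7.44, 7.74 and 7.30 with citrate. The groups did not overlap, and the difference was -1.01 (SE 0.12, limma adjusted p = 0.052). Tns2, a tensin of focal adhesions, had 9.57, 9.44, 9.72 and 9.18 in the controls and 7.87, 8.15, 9.03 and 8.90 with citrate, a difference of -0.99 (SE 0.15, limma adjusted p = 0.095). Here citrate replicates 1 and 2, the females, were lowest, and the groups again did not overlap.

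Camsap3, which caps the minus ends of microtubules, was at 6.19, 5.86, 6.11 and 5.94 in the controls and 5.47, 5.44, 5.73 and 5.56 with citrate (difference -0.48, SE 0.06, limma adjusted p = 0.052). Dlc1, a GTPase-activating protein, was at 6.75, 7.10, 6.87 and 6.90 in the controls and 6.37, 6.42, 6.26 and 6.12 with citrate (difference -0.61, SE 0.08, limma adjusted p = 0.052). In both genes every citrate mouse was below every control. Values of the same sign were fitted for Cldn3, a tight junction claudin (-0.63), Atat1, the acetyltransferase of alpha-tubulin (-0.41), Rhpn2 (-0.55), Ppfibp2, a liprin (-0.63), and Plekha6 (-0.70). Ablim3, an actin-binding LIM protein, went the other way with 0.73, and Lurap1l with 1.02 (SE 0.16, limma adjusted p = 0.122). None of these genes passed. The others of the 30 that are not predicted genes were Vwce (-0.74), Atxn2, an RNA-binding protein (-0.72), Gtf2ird1 (-0.60), Khnyn (-0.42), Leng8 (-0.61), Als2cl (-0.34), Zfp395 (-0.77), Bicra, a subunit of a chromatin remodelling complex (-0.36), Mid1ip1, which promotes polymerisation of acetyl-CoA carboxylase (-0.66) and the small nucleolar RNA Snora20 (0.85).

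**Figure D2:**
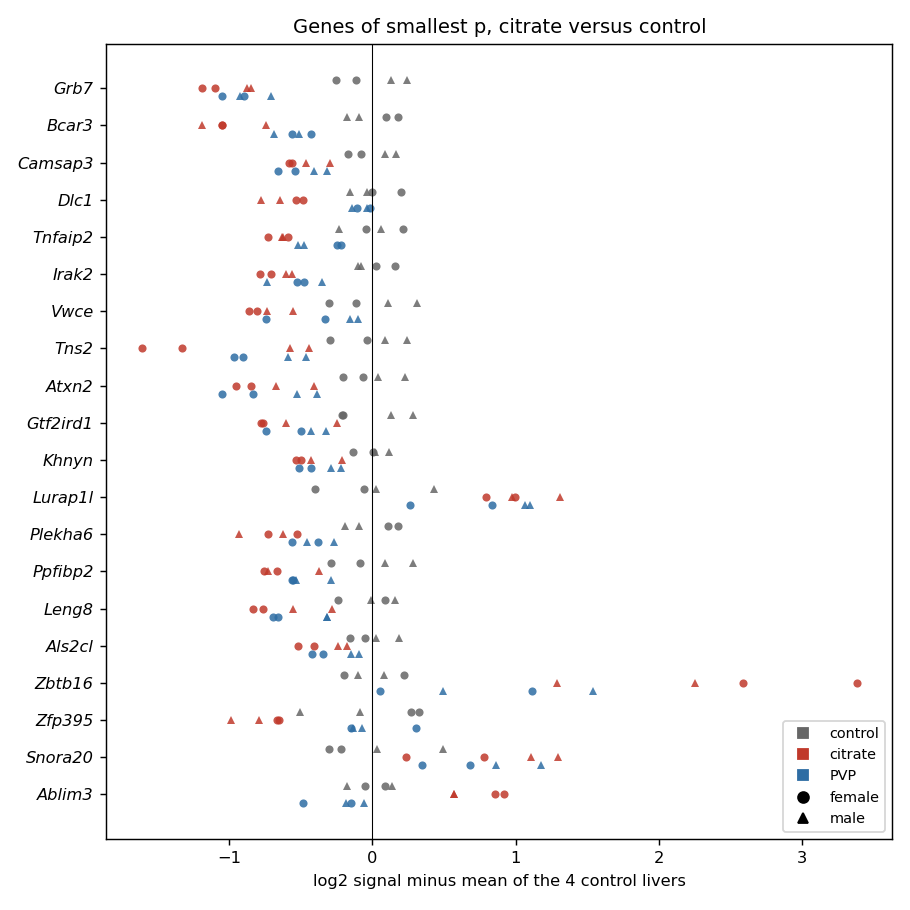
Log2 signal minus the mean of the 4 control livers for leading genes, in each of the 4 control, 4 citrate and 4 PVP mice. Symbols mark females and males. For Grb7 the mean subtracted is 9.61. Its signals before subtraction were 8.42 to 8.77 in the citrate mice and 9.36 to 9.86 in the controls.

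A list of receptor adaptors, their receptors and cytoskeletal proteins, drawn up with these results in view, held 31 tested genes. Its median difference was -0.11, against 0.00 over all genes tested. At an unadjusted p under 0.05, 10 members were lower and 1 higher, and 7 had all citrate mice below all controls. Among all genes 3.82% were lower at that threshold and 2.37% had no overlap with citrate below. Because the list holds leading genes of this same contrast, a higher share than that follows from the choice and is no test. Beside Grb7, Bcar3, Camsap3 and Tns2, the lower members were the following, which were named after their values were seen. Erbb3, a receptor of neuregulins, had 11.75, 12.06, 12.28 and 11.87 in the controls and 10.56, 11.53, 11.04 and 10.67 with citrate (difference -1.04, SE 0.22, limma adjusted p = 0.271), and its groups did not overlap. Irs1, the main substrate of the insulin receptor, had -0.69, Gab1, a docking protein, -0.33, Tns3 -0.33, Bcar1, the scaffold p130Cas, -0.30, and Tubb5, a beta-tubulin, -0.25. The higher member was Egfr, the epidermal growth factor receptor, at 16.81, 15.21, 16.39 and 13.66 in the controls and 17.58, 16.46, 16.995 and 17.52 with citrate (difference 1.62, SE 0.52, limma adjusted p = 0.521). The count of lower members was 8 to 11 when any single array was left out.

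The largest fitted difference of all was that of Mt2, and Mt1, its neighbour on chromosome 8, was also among the largest. Both encode metallothioneins. Mt2 was at 7.56, 17.86, 11.20 and 17.90 in control replicates 1 to 4, 18.68, 18.66, 15.78 and 17.17 with citrate and 18.70, 18.78, 13.13 and 17.89 with PVP. Mt1 was at 8.86, 16.98, 12.60 and 16.88 in the controls, 17.37, 17.37, 15.94 and 16.63 with citrate and 17.35, 17.36, 13.52 and 17.05 with PVP. The control males, replicates 1 and 3, were far below all other controls, while the control females already stood within the range of the exposed mice. The differences were 3.95 for Mt2 (SE 1.42, limma adjusted p = 0.59) and 2.998 for Mt1 (SE 1.17, limma adjusted p = 0.647), and neither gene passed.

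Within females the difference was 0.79 for Mt2 and 0.44 for Mt1, and within males 7.10 and 5.56. The female minus the male difference was -6.31 for Mt2 (limma adjusted p = 1), so a difference between the sexes did not pass. Without control replicate 1 the value was 2.54 for Mt2 and 1.72 for Mt1. Igfbp1, which encodes an insulin-like growth factor binding protein that rises in the liver in fasting and stress, was also lowest in the control males. It was at 6.82, 15.12, 12.15 and 15.79 in the controls and 16.15, 17.13, 14.41 and 14.26 with citrate (difference 3.02, SE 1.15, limma adjusted p = 0.628), 1.19 in females and 4.84 in males. Without control replicate 1 its difference was 1.61.

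**Figure D3:**
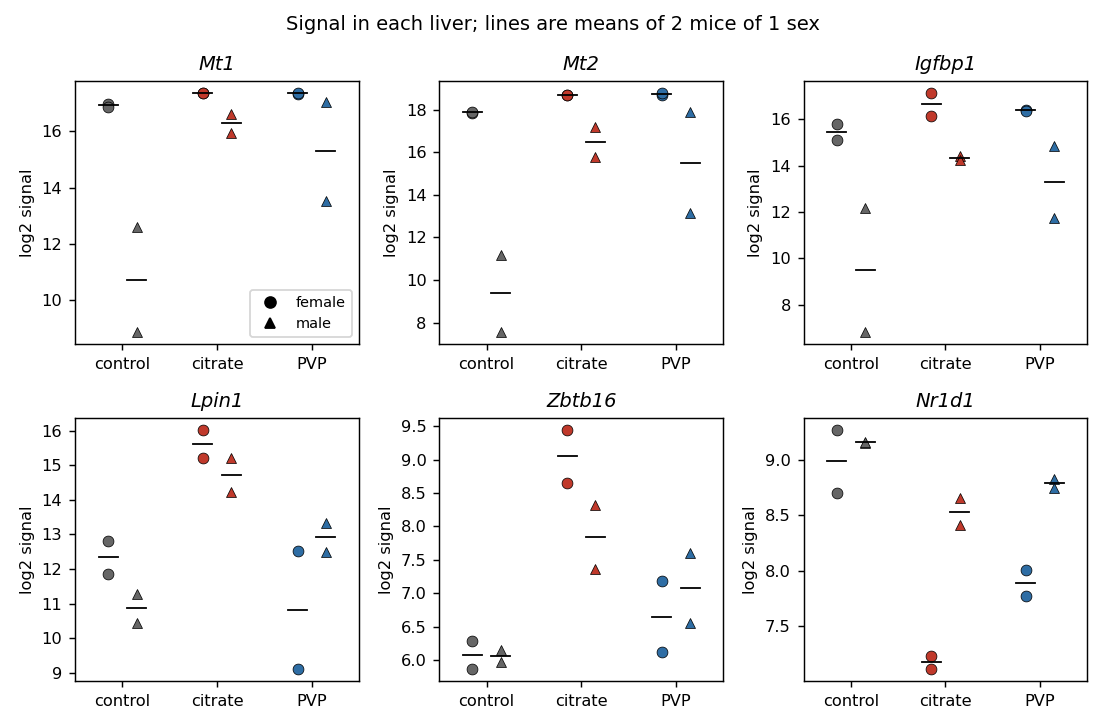
Log2 signals in each mouse of the 3 groups, females (circles) and males (triangles) apart, with a line at the mean of each pair. For Mt1, Mt2 and Igfbp1 the control males lie below the control females, and the citrate males lie between them.

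Because both metallothionein genes are textbook targets of MTF1, the annotated starts of Mt1, Mt2 and of Slc30a1, the zinc exporter that MTF1 also drives, were searched for the core of the metal response element. The letters were TGCGCNC or TGCACNC on either strand, in windows from 250 bases before to 50 bases after the start (RefSeq, GRCm38.p6). Of 32851 such windows of the genome, 25.7% held at least 1 match and 1.97% held 3 or more. Mt1 held 3, Mt2 4 and Slc30a1 2, and 10 of 22 metal handling genes with a window held at least 1. That last count is by gene and includes these 3 genes, whereas the share of the genome is by window. They are not like measures. The matches are shown in stretches of 30 bases on the plus strand, with the core in capitals (as its reverse complement where it lies on the other strand), since they mark the letters that the 3 genes share.
Mt1, chr8:94179055-94179084: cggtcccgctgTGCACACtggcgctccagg
Mt1, chr8:94179080-94179109: ccagggagctcTGCACTCcgcccgaaaagt
Mt1, chr8:94179098-94179127: cgcccgaaaagTGCGCTCggctctgccaag
Mt2, chr8:94172384-94172413: agcatcgcctcTGCACCCggcccctcgggc
Mt2, chr8:94172479-94172508: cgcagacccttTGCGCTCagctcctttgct
Mt2, chr8:94172557-94172586: ggggggagggcGTGTGCAggctctgtccca
Mt2, chr8:94172611-94172640: gaattcgggtcGTGCGCAggcccaggggcg
Slc30a1, chr1:191906727-191906756: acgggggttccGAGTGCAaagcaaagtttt
Slc30a1, chr1:191906800-191906829: gcctccgggccGAGCGCAgtcgccgcggac
A match is a run of letters and was not tested for binding.

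Slc30a1 did not share the values of the metallothioneins. It was at 9.01, 8.86, 9.14 and 9.09 in the controls and 9.15, 8.85, 8.79 and 9.10 with citrate, with groups that overlap and a difference of -0.05 (SE 0.12). Over the 30 tested genes of metal handling the median was -0.03, with 9 above 0 and 18 below; without citrate replicate 3 or 4 the split was 15 to 15. At an unadjusted p under 0.05, 4 were higher and 3 lower, where 2.75% and 3.82% of all genes were. Leaving out control replicate 1 or citrate replicate 4 left 1 higher, and leaving out control replicate 4 or citrate replicate 3 left 1 lower. Commd1, a factor of copper export, had 0.15 (SE 0.05) with all citrate mice above the controls, and Slc30a10, a manganese exporter, had -0.82 (SE 0.30). Hamp, which encodes the iron hormone hepcidin, was at the ceiling of 19.93 on every array, so a difference could not be read.

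Genes of the oxidative stress response mostly had values below 0. Of 26 NRF2 targets and glutathione genes, 22 had a difference below 0 and 4 above, with a median of -0.19 that stayed between -0.28 and -0.14 when single arrays were left out. At an unadjusted p under 0.05, 3 were lower and 0 higher, where 3.82% and 2.75% of all genes were. The number lower was 1 without control replicate 3, 7 without citrate replicate 2 or PVP replicate 3, 6 without PVP replicate 2 and 10 with the 8 arrays of both groups alone. Nfe2l2, which encodes NRF2 itself, was at 7.95, 8.54, 8.33 and 8.70 in the controls and 7.83, 7.83, 7.32 and 7.62 with citrate; the groups did not overlap, and the difference was -0.73 (SE 0.20, limma adjusted p = 0.399). Nqo1, a quinone reductase and standard NRF2 target, had -0.52 (SE 0.19), and Gstk1, a glutathione transferase, -0.37 (SE 0.13). Gclc, the catalytic subunit of the first enzyme of glutathione synthesis, had -0.70 (SE 0.37). Hmox1, haem oxygenase, had 0.18 (SE 0.26), with 6.30, 6.92, 7.10 and 6.90 in the controls and 7.17, 6.80, 6.84 and 7.13 with citrate.

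The 20 antioxidant enzymes had a median of -0.06 and no member at an unadjusted p under 0.05; the smallest p belonged to Prdx2 (-0.19), Gpx4 (-0.18) and Sesn2 (0.10). Of 16 heat shock genes 4 were above 0 and 11 below, with a median of -0.06; without control replicate 4 the median was 0.04, with 9 above and 6 below. Hsph1, a co-chaperone of Hsp70, had -0.59 (SE 0.21) with all citrate mice below the controls. The mitochondrial chaperonins Hspd1 and Hspe1 had 0.22 and 0.22, and in Hspd1 all citrate mice lay above the controls. In the unfolded protein response 16 of 22 genes were above 0, with a median of 0.08 and no member at an unadjusted p under 0.05. The direction rests on single controls: without control replicate 3 the median was -0.01 with 10 above 0, and without control replicate 4 it was 0.01 with 11 above 0. Trib3 had -0.15, Herpud1 0.62 and Atf4 -0.13.

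Glucocorticoid-responsive genes had a median of 0.38, with 20 of 23 above 0 and 8 higher and 0 lower at an unadjusted p under 0.05, where 2.75% and 3.82% of all genes were. Like the other lists, this one was chosen with earlier results of these data known. It holds Zbtb16, a leading gene of this same contrast, so a share above that of all genes is no test. The count of higher members was 5 without citrate replicate 4 and 10 without PVP replicate 1. Zbtb16, a transcriptional repressor induced by glucocorticoids, was at 5.97, 6.29, 6.15 and 5.87 in the controls and 8.65, 9.45, 7.36 and 8.32 with citrate. All citrate mice lay above all controls, and the difference was 2.38 (SE 0.41, limma adjusted p = 0.144). Lpin1, a phosphatidate phosphatase and co-activator of fatty acid oxidation, was at 10.45, 11.87, 11.27 and 12.80 in the controls and 15.21, 16.03, 14.23 and 15.22 with citrate. Its groups did not overlap either, and the difference was 3.57 (SE 0.86, limma adjusted p = 0.316). It passed when PVP replicate 1 was left out (adjusted p = 0.0468). Cebpd, a transcription factor of the acute phase, had 0.40 (SE 0.12). Named after their values were seen, Fkbp5, a co-chaperone of the glucocorticoid receptor, had 0.75 and Ddit4, an inhibitor of mTORC1, 1.08; Mt2 and Igfbp1 belong to this list too.

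In the fasting and gluconeogenesis list 11 of 21 genes were above 0 and 10 below, with a median of 0.01, which ran from -0.03 without control replicate 1 to 0.15 without control replicate 3. Here 4 members were higher and 3 lower at an unadjusted p under 0.05, against 2.75% and 3.82% of all genes. The number higher was 2 without citrate replicate 4, and leaving out control replicate 1 or 2 or citrate replicate 3 or 4 left 1 lower. Foxo1, which drives gluconeogenic genes when insulin is low, had 0.87 (SE 0.30), and Crtc2, a co-activator of CREB, -0.27 (SE 0.07). Of 20 clock genes 14 were below 0, with a median of -0.09 that ran from -0.05 without citrate replicate 3 to -0.15 without citrate replicate 1 or control replicate 1. Nr1d1, the clock repressor REV-ERB alpha, was at 9.16, 9.28, 9.16 and 8.70 in the controls and 7.11, 7.23, 8.41 and 8.65 with citrate. The groups did not overlap, the citrate females were lowest, and the difference was -1.23 (SE 0.23, limma adjusted p = 0.187), -1.82 in females and -0.63 in males. Bhlhe41, a repressor of the clock loop, had -0.36 (SE 0.12), and Per3, of the period family, -0.26 (SE 0.09).

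Genes of inflammatory signalling had values on both sides of 0. Irak2, a kinase of interleukin-1 and Toll-like receptor signalling, was at 6.42, 6.68, 6.43 and 6.54 in the controls and 5.81, 5.74, 5.96 and 5.92 with citrate, a difference of -0.66 (SE 0.10, limma adjusted p = 0.0944). Tnfaip2, a gene induced by tumour necrosis factor, was at 6.17, 6.33, 5.88 and 6.07 in the controls and 5.52, 5.39, 5.49 and 5.48 with citrate, a difference of -0.64 (SE 0.09, limma adjusted p = 0.0944). In both genes all citrate mice lay below all controls. They were the 2 lower members of the 27 genes of cytokine signalling at an unadjusted p under 0.05, against 8 higher ones, where 3.82% and 2.75% of all genes were lower and higher. This list was also chosen with earlier results known and holds leading genes of this contrast, so these shares are no test. The median was 0.08, and it was -0.01 without citrate replicate 4, 0.19 without control replicate 3 and 0.20 without citrate replicate 2. The higher members include Cebpb, a transcription factor of the acute phase (0.54), Cebpd and, named after their values were seen, the receptor genes Il1r1 (1.68), Il6ra (1.04), Tnfrsf1b (0.74) and Lifr (0.73) and the NF-kappa-B cofactor Nfkbiz (0.52). Il1r1 was at 9.65, 8.92, 10.05 and 8.81 in the controls and 10.74, 10.75, 10.99 and 11.69 with citrate, with no overlap. The number of higher members was 3 without citrate replicate 1 or without citrate replicate 4, 4 without control replicate 1 or 2, and 5 without PVP replicate 2 or 3.

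Acute phase proteins, the plasma proteins that hepatocytes secrete in inflammation, had 16 of 24 members above 0, 4 below, a median of 0.19 and none at an unadjusted p under 0.05. The median was 0.07 without control replicate 2, 0.10 without control replicate 4 and 0.08 without citrate replicate 1, and 0.34 with 3 members higher without citrate replicate 2. With genes at the ceiling left out, it was 0.35 over 18 members, 14 above 0 and 4 below. Saa1, serum amyloid A, was at 9.0, 11.41, 10.53 and 11.02 in the controls and 15.60, 9.71, 10.96 and 11.93 with citrate, so the groups overlap, and its difference was 1.56 (SE 1.23). It was 0.73 without citrate replicate 1 and 2.94 without citrate replicate 2. Lcn2, lipocalin 2, had 1.33 (SE 1.07) and Steap4, a metalloreductase induced by interleukin-6, 0.60 (SE 0.46). Of 25 interferon-stimulated genes 16 were below 0, with a median of -0.06; without control replicate 3 the median was 0.03, with 14 above 0, and without control replicate 2 or 4 it was -0.13. Irf1, the interferon regulatory factor, had -0.49 (SE 0.16) with no overlap, while Oasl1 had -0.16 and Igtp -0.53.

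Genes of lipid metabolism split. Mlxipl, which encodes ChREBP, the transcription factor that turns on lipid synthesis from glucose, was at 12.56, 12.78, 12.81 and 12.21 in the controls and 11.48, 11.58, 11.72 and 11.64 with citrate. The groups did not overlap, and the difference was -0.98 (SE 0.23, limma adjusted p = 0.296). Over the 25 genes of fatty acid and triglyceride synthesis, which include Lpin1 and Mlxipl, the median was 0.01 with 15 above 0 and 10 below; it was -0.04 without control replicate 1 or 2 and -0.02 without citrate replicate 2. Acacb, the acetyl-CoA carboxylase that restrains fatty acid oxidation, had 0.90 (SE 0.32).

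Targets of PPAR-alpha, the receptor that drives fatty acid oxidation, had 28 of 33 members below 0 and a median of -0.22. It was 0.01 in females and -0.45 in males. Without control replicate 4 it was -0.05, without citrate replicate 3 -0.13, and without control replicate 2 -0.47. Plin2, which coats lipid droplets, was at 13.50, 13.42, 13.86 and 14.14 in the controls and 13.29, 12.80, 12.69 and 13.10 with citrate, with no overlap and a difference of -0.76 (SE 0.21, limma adjusted p = 0.441). Ehhadh, a peroxisomal oxidation enzyme, had -0.60 (SE 0.23), and Plin5, the droplet protein of oxidative tissues, 0.75 (SE 0.27).

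Cholesterol synthesis genes had 17 of 20 members above 0 and a median of 0.37, which was 0.70 in females and 0.15 in males. Without control replicate 2 the median was 0.19. At an unadjusted p under 0.05, 2 were higher and 1 lower, where 2.75% and 3.82% of all genes were. The number higher was 0 without control replicate 1 or 2 or citrate replicate 1, 1 without control replicate 4 or citrate replicate 3 or 4, 4 without PVP replicate 1 and 9 without PVP replicate 2. Sqle, squalene epoxidase, was at 7.60, 10.01, 9.53 and 10.43 in the controls and 12.07, 11.47, 9.995 and 9.87 with citrate, a difference of 1.46 (SE 0.58). Dhcr7, the last enzyme of the pathway, had 0.66 (SE 0.25). Insig1, which retains the regulator SREBP in the endoplasmic reticulum and is itself an SREBP target, had -0.44 (SE 0.16). None of these passed.

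Of the 26 bile acid genes 10 were above 0 and 16 below, with a median of -0.10 that ran from -0.20 without citrate replicate 2 to -0.02 without citrate replicate 3. The synthesis enzymes Cyp7a1 and Cyp7b1 were among the higher values and are named for their small p in the list. Cyp7a1, the rate-limiting enzyme of bile acid synthesis, was at 13.06, 14.60, 15.11 and 15.93 in the controls and 17.08, 16.81, 14.91 and 15.77 with citrate, a difference of 1.47 (SE 0.48, limma adjusted p = 0.533). Cyp7b1, of the alternative pathway, had 1.001 (SE 0.32) and Nr5a2, a nuclear receptor that acts on Cyp7a1, -0.27 (SE 0.10). Among 29 genes of drug-metabolising cytochromes P450 and their receptors the median was -0.04, from -0.18 without citrate replicate 2 to 0.00 without control replicate 1 or citrate replicate 4. At an unadjusted p under 0.05, 1 was lower (3.45%), near the 3.82% of all genes. That gene was Cyp3a25 (-0.70, SE 0.25), in which all citrate mice lay below the controls, as in 2.37% of all genes. Cyp2c38 had -0.91 and Cyp2b10, a target of the receptor CAR, 1.06. Of 21 conjugation enzymes 9 were above 0, and 14 were without control replicate 4, with Sult1b1, a sulfotransferase, at 0.54, Sult3a1 at 2.15 and Ugt2b1, a glucuronosyltransferase, at 0.55. The Sult3a1 value had an SE of 1.00 and was 3.74 in females and 0.56 in males. The control males stood at only 3.87 and 3.97.

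The lists of p53 targets, DNA repair and the respiratory chain had medians near 0. The 21 p53 targets had a median of -0.03. At an unadjusted p under 0.05, 2 were higher and 2 lower, where 2.75% and 3.82% of all genes were. The higher ones numbered 0 when control replicate 1 or citrate replicate 2 or 4 was left out and 1 when citrate replicate 1 or 3 was. Cdkn1a, the cell cycle inhibitor p21, had 0.81 (SE 0.31), while Gadd45a had -0.49 (SE 0.15) and Plk2 -0.73 (SE 0.24). For 30 DNA repair genes the median was 0.01; Nthl1 and Ogg1, glycosylases that remove oxidised bases, had 0.17 and -0.19, and Rad50, of the double-strand break sensor, -0.30. For 38 nuclear genes of the respiratory chain it was -0.01, with Ndufa8 at -0.41, Cox7a2 at 0.26 and Sdhc at -0.21. The 22 genes under growth hormone had a median of -0.20, but of 0.01 in females and -0.02 in males taken apart, and of -0.07 without control replicate 4 or citrate replicate 4, -0.09 without control replicate 1, -0.10 without control replicate 2 and -0.13 without citrate replicate 3. Stat5a had -0.26 (SE 0.10) and Socs2, a feedback inhibitor of the receptor, 0.45 (SE 0.19). Lysosomal and autophagy genes had 19 of 27 members below 0 and a median of -0.07, which was -0.04 without control replicate 3, with Gabarapl1, of the autophagosome, at -0.48, and the acid hydrolases Gaa and Lipa at -0.26 and -0.44.

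**Figure D4:**
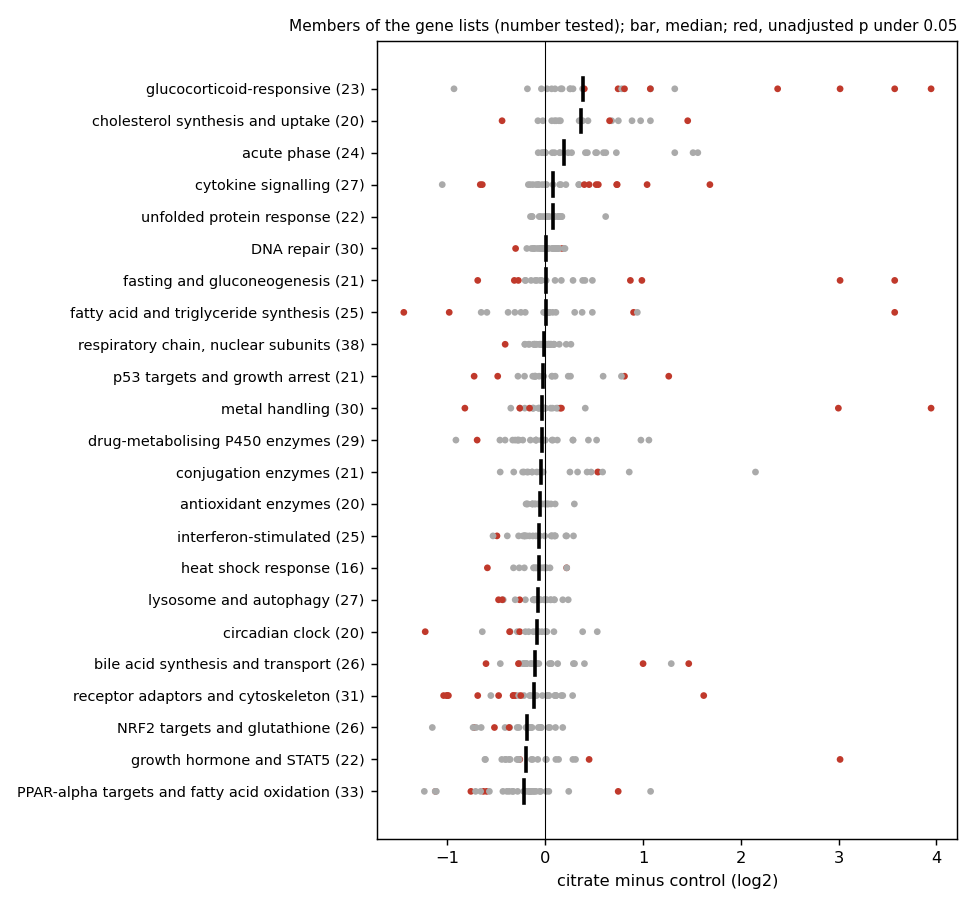
Differences citrate minus control (log2) of every tested member of the 23 pathway lists, 1 row per list, with a bar at the median and members of an unadjusted limma p under 0.05 in red. Medians run from -0.22 for PPAR-alpha targets to 0.38 for glucocorticoid-responsive genes, against 0.00 for all genes tested.

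Markers of other liver cells were measured beside these groups. All 16 Kupffer cell and macrophage markers had a difference above 0, with a median of 0.40, 0.62 in females and 0.02 in males, and 2 were higher at an unadjusted p under 0.05, against 2.75% of all genes. Their summed level was 12.92 to 13.99 in the controls and 13.02 to 14.33 with citrate, so the groups overlap. Without control replicate 2 the median was 0.10, with 12 above 0 and 4 below. Cd163, Cd14 and Clec4f were chosen after their values were seen. Cd163, the haemoglobin scavenger receptor, had 7.46, 6.53, 6.98 and 7.62 in the controls and 8.75, 8.64, 7.57 and 7.46 with citrate (difference 0.96, SE 0.41), and Cd14, the endotoxin co-receptor, 0.45 (SE 0.14). Clec4f, a lectin specific to Kupffer cells in mice, had 0.48 (SE 0.32). Whether macrophage content has a part in the values of cytokine receptors was not tested.

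Of 12 stellate cell and fibroblast markers 11 were below 0, with a median of -0.10 that was -0.03 with 4 above 0 without control replicate 4 and ran to -0.19 without control replicate 1. Of 9 neutrophil and monocyte markers 8 were above 0, with a median of 0.05 and a summed level of 8.11 to 10.32 in the controls and 9.62 to 10.34 with citrate. Mpo, Elane and Ngp, made in neutrophil precursors, were below the limit for testing. Endothelial markers split 7 to 5, and 3 to 9 without control replicate 2, markers of T, B and NK cells 4 to 6 and those of dividing cells 4 to 7. Cholangiocyte markers summed to 9.09 to 13.19 in the controls and 11.54 to 13.43 with citrate. The summed level of the 2 tested erythroid markers was 7.65 to 11.38 and 8.01 to 11.34, of adipocyte markers 7.20 to 7.71 and 7.31 to 8.08, and of acinar markers 5.95 to 6.28 and 6.09 to 6.19, in controls and citrate mice.

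Classes of transcript were counted in the same way, against 6.57% of all genes at an unadjusted p under 0.05. By direction 2.75% of all genes were higher and 3.82% lower. The share in either direction was 7.06% of protein-coding genes, 6.88% of small nucleolar RNAs and 5.62% of pseudogenes, near that background. It was 7.36% of microRNA genes, 5.75% of long non-coding RNAs and 3.15% of small nuclear RNAs. These shares do not show the split between higher and lower. Of 13226 protein-coding genes 6076 were above 0 and 7123 below, with 280 higher and 654 lower at an unadjusted p under 0.05. Of 669 small nucleolar RNAs, which guide the modification of ribosomal RNA, 475 were above 0 and 193 below, with a median of 0.13 and 42 higher and 4 lower at that threshold. Pseudogenes had 1824 of 3096 above 0, with 127 higher and 47 lower. Small nuclear RNAs had 400 of 730 above 0, with 17 higher and 6 lower, and microRNA genes 195 of 367, with 23 higher and 4 lower. The highest-ranked small nucleolar RNA, Snora20, was at 6.04, 5.71, 6.504 and 5.79 in the controls and 6.79, 6.24, 7.31 and 7.12 with citrate, so the groups overlap.

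The effect of citrate in females minus that in males was tested with 6 means of group and sex, 2 mice in each. Of 19987 genes, 0 passed, the smallest adjusted p was 0.521, and 489 (2.45%) had an unadjusted limma p under 0.05. The difference had the same sign in both sexes in 54.4% of genes. Of the 5 genes of smallest p for the difference, 3 are predicted genes and 1, Actg-ps1, is a pseudogene of actin (-1.72 in females and 1.18 in males). Lrtm1, a membrane protein with leucine-rich repeats, had 1.40 in females and -0.69 in males (limma adjusted p = 0.521). Among the lists the medians of both sexes were furthest apart for cholesterol synthesis, the Kupffer cell markers, the cytochromes P450 and the PPAR-alpha targets. With 2 mice per mean, the female control replicates 2 and 4 enter every female value and control replicates 1 and 3 every male value.

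**Figure D5:**
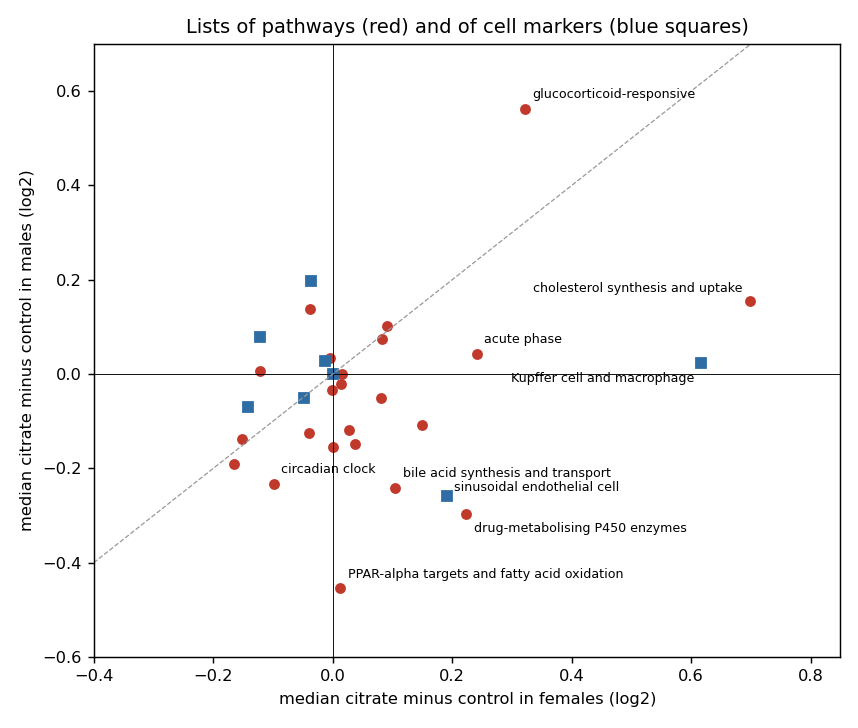
Median difference citrate minus control (log2) of each list in females, across, and in males, upward, with the line of equal values dashed. The erythroid, adipocyte and acinar markers, with few tested members, are not drawn. Kupffer cell markers lie at 0.62 and 0.02, and glucocorticoid-responsive genes are above 0 in both sexes.

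The PVP-coated particles were compared with the same 4 controls, so the values of both coatings against control share the controls' error and are given side by side only. Grb7 had -1.002 with citrate and -0.89 with PVP, Bcar3 -1.01 and -0.55, Tns2 -0.99 and -0.73, and Mt2 3.95 and 3.49. Dlc1 had -0.61 with citrate and -0.08 with PVP, Zfp395 -0.77 and -0.01, and Ablim3 0.73 and -0.22. Zbtb16 had 2.38 and 0.80, Lpin1 3.57 and 0.26, and Saa1 1.56 and 5.83. PVP against control had 8 genes past the threshold (0.04%).

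The difference between the coatings was tested directly. For PVP minus citrate 0 of 19987 genes passed in limma, with a smallest adjusted p of 0.101, and 2800 (14%) had an unadjusted p under 0.05. Of the 30 genes of smallest p for citrate, 8 had an unadjusted p under 0.05 for PVP minus citrate, among them Dlc1 (0.53, SE 0.08, limma adjusted p = 0.169), Bcar3 (0.46, SE 0.12), Zbtb16 (-1.58, SE 0.41), Zfp395 (0.76, SE 0.13) and Ablim3 (-0.95, SE 0.13). The 30 were ranked on the same citrate arrays that enter PVP minus citrate. That selection favours PVP values nearer the controls, so the count is no test of the coatings. Lpin1 was at 9.11, 12.51, 12.50 and 13.32 in the 4 PVP mice, and its PVP minus citrate value was -3.31 (SE 0.86, limma adjusted p = 0.247). For Grb7 the value was 0.11 (SE 0.10), with PVP mice at 8.56, 8.72, 8.69 and 8.91, within or near the range of the citrate mice. The PVP group includes the arrays of lowest quality, replicates 1 and 4, and their part in these values was not tested for single genes.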

How the data were processed

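Liver RNA of 12 mice was measured on Affymetrix whole-transcript arrays, 1 per mouse. The deposited table held log2 signals, and the submitters' processing notes name RMA and Transcriptome Analysis Console, version 4.0.1.36, with no role; the build is not given in the sources used here. Values end at a ceiling of 19.93, which can hide differences of abundant transcripts. On at least 1 array, 87 tested genes were at it. Of 72688 probe sets 30604 named 1 symbol, 2146 several and 39938 none in the platform's table, and 1121 symbols were updated through RefSeq. The probe set of highest mean stood for a gene, and genes with a mean above the 40th percentile (3.93) were tested.

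limma 3.58.1 in R 4.3.3 fitted group and sex to all 12 arrays, with a variance trend; 6 means of group by sex gave the sex-specific values. Tests were two-sided with Benjamini-Hochberg adjustment. p-values measure the spread between mice, and the number of arrays limits the precision. In simulated data with independent normal noise, 86 of 100 genes changed by 1 (log2) and 96 of 100 changed by 2 were recovered. In the same data 10 unchanged genes were called. So many planted genes make the adjusted threshold easier to reach, so these shares are not the power of the comparison here. Alternatives changed the normalization, filter, probe sets, variance model, covariates and arrays.

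Members and lists were chosen with earlier results of these data known. Named were genes past the threshold, those of smallest p up to 30, 3 per list, 6 fixed genes (Mt1, Mt2, Slc30a1, Hmox1, Hamp, Gclc) and the 5 of smallest p between sexes; others are marked. The lists held 751 genes, 669 with a probe set and 639 tested. Predicted genes were counted only. Promoter windows came from RefSeq (GRCm38.p6).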

Additional observations from a re-analysis of the deposited data

Results flagged for a closer look

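In 261 groups of 4 mice checked over the named genes and the list medians, 9 had 1 mouse far from the other three by Dixon's criterion; chance flags about 1 in 20 groups. Among the citrate mice these were 4.99 for Bicra, 14.6 for Steap4 and 8.14 for Ddit4 (log2 signals). Among the controls they were 7.00 for Mid1ip1, 6.24 for Atf4, 16.1 for Ehhadh and 7.35 for Irf1. For list medians, given as deviations from controls of the same sex, 1 citrate mouse stood apart at -0.0333 for cytokine signalling and 1 at 0.112 for the erythroid markers.

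Of 18043 probe sets that name no gene or several and lay above the filter, 2 passed for citrate against control, both higher, with 551 higher and 407 lower at an unadjusted limma p under 0.05. The 2 hold identical values on every array, 3.36 ± 0.14 in the controls and 5.21 ± 0.44 with citrate (log2, mean ± SD, n = 4 each), a difference of 1.86 (SE 0.19, limma adjusted p = 0.0066). They carry no gene name in the table used here, and their identical values are 1 measurement rather than 2. The filter of 3.93 applied to the mean over all 12 arrays. Their control mean lay below it, so they entered the test only through arrays of exposed mice.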

How the results depend on the processing

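The count of 1 gene for citrate against control was 2 with median-centred arrays, without genes at the ceiling, without the variance trend and with the robust fit, 4 with the stricter filter, 5 with a covariate for the exon over intron area and 6 with quantile normalization. It was 0 with 6 means of group by sex, without the sex term and with the 8 arrays of the comparison alone, and 0 without both arrays of lowest area, an alternative added after seeing the data. Leaving out single arrays gave 0 to 6; without citrate replicate 3 the gene was Bcar3, not Grb7. For the difference between the sexes the count was 0 to 2 over single arrays left out, 2 without control replicate 3. For PVP minus citrate it was 1 with 6 means and 2 with quantile normalization. Replicate numbers did not pair the mice, since deviations of same-numbered control and citrate mice correlated at -0.226 to 0.234; with the replicate block the count for citrate was 0 and Grb7 had an adjusted limma p of 0.262. Of 112 genes followed over up to 26 settings, 111 kept their sign; Slc30a1, at -0.05, ran from -0.12 to 0.013 over single arrays left out, above 0 without citrate replicate 3, and the cause was not tested. Signals near the ceiling and near background limit what could be read.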

Other observations

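Among the 93 genes with a difference of at least 1 in size were regulators of growth and of glucose and amino acid handling that the lists do not hold. They were picked for their size after their values were seen, and none passed. Arrdc3, an arrestin-like protein that acts on beta-adrenergic signalling, was at 12.99, 12.39, 12.46 and 11.38 in the controls and 9.97, 9.70, 9.51 and 9.85 with citrate, a difference of -2.55 (SE 0.51, limma adjusted p = 0.232). It was the lowest value of all genes tested. Id2, an inhibitor of helix-loop-helix transcription factors, had -1.58 (SE 0.40), and Cited2, a co-activator partner of CBP and p300, -1.09 (SE 0.23).

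Slc38a2, an amino acid transporter induced when amino acids are short, was at 12.44, 14.49, 13.38 and 14.17 in the controls and 15.08, 15.70, 14.47 and 15.03 with citrate, a difference of 1.45 (SE 0.33, limma adjusted p = 0.293). Fgl1, a fibrinogen-like protein that hepatocytes secrete, had 1.363 (SE 0.40). With PVP the values were -1.998 for Arrdc3, -0.12 for Id2, 1.28 for Slc38a2 and 2.46 for Fgl1, against the same controls.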
